A study of Homo sapiens with 6 samples.

Results

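ATF4 is a transcription factor that cells use to answer a shortage of amino acids, and 43 of its target genes were followed here in LNCaP cells with and without PACT. The members were named by symbol, as genes of amino acid synthesis, amino acid transport and tRNA charging together with the stress regulators around them, and the rule uses no measured value, although earlier results of these data were known when it was set. All 43 were found by their NCBI Gene number among the 29806 genes of the deposited counts, and all 43 had enough reads to be tested. In PACT KO cells the mRNA of 34 members was lower and that of 1 member, *DDIT3*, was higher, while the other 8 did not pass the test.

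When eIF2 is phosphorylated, general protein synthesis slows and the ATF4 mRNA is translated more, so ATF4 protein is set largely by translation. PACT takes its name from its activation of PKR, one of the kinases that phosphorylate eIF2. GCN2, another of them, senses uncharged tRNA, and PERK and HRI respond to stress of the endoplasmic reticulum and to low heme or stress of the mitochondrion. ATF4 pairs with C/EBP proteins on a composite DNA element and turns on the enzymes, transporters and tRNA synthetases that restore amino acids, as well as *DDIT3* (CHOP), *TRIB3* and other regulators that limit the response.

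LNCaP cells come from a human prostate cancer and respond to androgen. The groups were LNCaP parental cells, which are wild type, and PACT KO cells, in which CRISPR-Cas9 was directed at *PRKRA*, the gene of PACT. Each group had 3 dishes, in RPMI-1640 medium with fetal bovine serum, and polyA RNA was taken 48 hours after plating. All PACT KO dishes held cells of 1 clone. The p-values therefore measure the spread between dishes, and an effect of PACT cannot be told apart from a property of that clone.

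The libraries held 19930060 to 24940838 reads counted on genes. Levels are given as CPM, a gene's reads per 1000000 reads of its library after TMM scaling, with n = 3 in each group. Fold changes are log2 of PACT KO over LNCaP parental, so that values under 0 are lower in PACT KO, and are given ± their standard error. *PRKRA* itself was at 38.8, 37.4 and 35.0 CPM in the LNCaP parental libraries and at 11.8, 13.6 and 12.02 CPM in the PACT KO libraries, lower in the knockout (-1.57 ± 0.07, edgeR FDR = 8.83e-21) but still detected. These values are of mRNA. The authors checked the edited locus by PCR and sequencing, and reported depletion of PACT protein by western blot. The 14 markers of LNCaP and luminal prostate cells summed to between 4954 and 4970 CPM in LNCaP parental and between 5096 and 5155 CPM in PACT KO. At an edgeR FDR under 0.01, 6 of the 14 (42.9%) were lower and 4 (28.6%) higher, beside 18.8% and 15.3% of all genes tested. Their log2 fold changes ran from -2.50 ± 0.06 for *KLK3* to 0.54 ± 0.04 for *SLC45A3*, with *KLK2* at -0.84 ± 0.07. The 15 markers of other cell types summed to between 62.8 and 65.5 CPM and between 63.6 and 70.2 CPM, with *COL1A2*, *PECAM1*, *CDH5*, *CD3E* and *KRT5* at 0 in every library. Of the latter, 6 had enough reads to be tested. *COL1A1* (0.52 ± 0.05) and *ALB*, with at most 25 reads in a library, were higher and *VWF* (-0.61 ± 0.07) was lower, and the part of such differences in the results was not tested. In bulk RNA, less of an mRNA per cell and fewer cells that express it cannot be told apart.

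Many promoters of the members held a sequence that the rule for choosing them did not use, although some of these genes were first recognised as ATF4 targets through it. The composite element of ATF4 and C/EBP proteins was searched as TGATGNAA on both strands, from 250 bases before to 50 bases after each RefSeq transcription start. Of the 35 members with a promoter in the RefSeq table (GRCh38.p14), 15 (42.9%) held it, against 2.64% of the 11195 genes tested that had one. Its stricter form TGATGCAA stood in 10 of the 35 members (28.6%) and in 0.732% of the genes tested, and every match to it is also a match to the looser form. The matches below, one or more for each main role of the members, are printed 5′ to 3′ on the strand that reads TGATG, with the element in capitals.
*ASNS*, chr7:97872458-97872487, minus strand: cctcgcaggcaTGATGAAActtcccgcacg
*CHAC1*, chr15:40953251-40953280, minus strand: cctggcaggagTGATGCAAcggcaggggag
*CEBPG*, chr19:33374060-33374089, plus strand: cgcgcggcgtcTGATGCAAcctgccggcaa
*SLC1A4*, chr2:64989381-64989410, minus strand: ccggctggagaTGATGCAAacgggagccgc
*SLC1A5*, chr19:46784893-46784922, minus strand: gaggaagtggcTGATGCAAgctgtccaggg
*AARS1*, chr16:70289675-70289704, plus strand: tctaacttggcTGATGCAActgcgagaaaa
*IARS1*, chr9:92293692-92293721, plus strand: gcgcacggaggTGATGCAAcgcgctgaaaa
*MARS1*, chr12:57488053-57488082, minus strand: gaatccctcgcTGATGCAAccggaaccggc
These are matches of letters, and no binding was measured. By role, TGATGNAA was found in 4 of 6 transporters with a promoter in the table, 7 of 11 genes of tRNA charging and export, 3 of 9 stress regulators, 1 of 7 enzymes of amino acid synthesis and 0 of the remaining 2 members.

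For the whole group, the 3 LNCaP parental libraries held 7704 to 7782 CPM on the 43 members together and the 3 PACT KO libraries 6326 to 6448 CPM, a mean change of -17.7%. The groups were far apart relative to their spread, with 7741 ± 39.2 CPM in LNCaP parental and 6369 ± 68.2 CPM in PACT KO (SD, n = 3 each). Genes were compared by edgeR's quasi-likelihood test over all 14462 genes that passed its expression filter, 2-sided, with Benjamini-Hochberg adjustment (FDR), and a gene was called at an FDR under 0.01. By this test 34 of the 43 members (79.1%) were lower in PACT KO, against 18.8% of all genes tested, and 1 of the 43 (2.33%) was higher, against 15.3%. The libraries of the groups did not overlap in 37 members (86.0%), against 52.2% of all genes tested. In 35 members every PACT KO library lay below every LNCaP parental library (27.2% of all genes tested), in 2 every one lay above (25.1%), and in 6 the groups overlapped. With 3 dishes against 3, the smallest p that exact permutation allows for 1 gene is 0.10, so calls rest on the model fitted over all genes.

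The falls were moderate. The 34 members called lower fell by 7.82% to 53.6%, with a median of 21.6%, and in 31 of them the change stayed under 1.5-fold. A DEG, with an FDR under 0.01 and at least a 1.5-fold change, was downregulated in 3 cases, *ATF5*, *SLC7A5* and *SLC1A4* (2.65% of all genes were downregulated DEGs), and upregulated in 0 (3.07%), also by DESeq2 and limma. At an unadjusted p under 0.05, 36 members were lower and 2 higher. The median log2 fold change was -0.25 over the members and 0.00040 over all genes tested. The members are well expressed genes, which the test calls more readily. Of the 24 members with a mean of at least 100 CPM, 22 were lower and 0 higher (0 also at an unadjusted p under 0.05, by DESeq2 and by limma), while 37.7% of the 2420 genes at that level were lower and 17.9% higher.

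**Figure D1:**
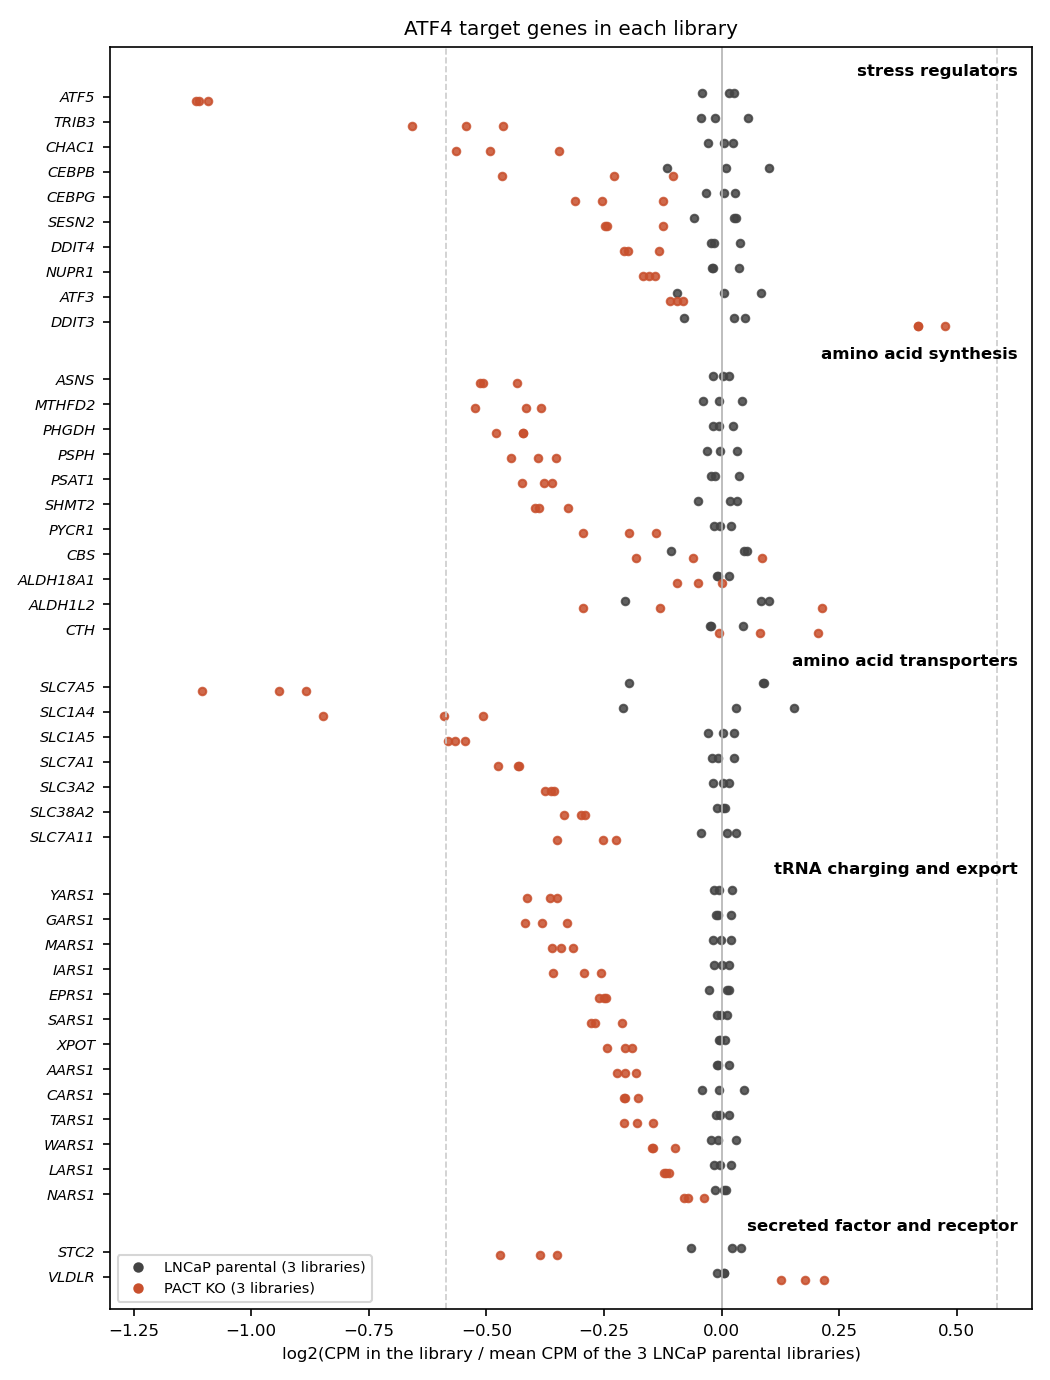
Level of each of the 43 members in each library, as log2 of its CPM over the mean CPM of the 3 LNCaP parental libraries (grey points, LNCaP parental; orange points, PACT KO), ordered by role and by fold change. Dashed lines mark a 1.5-fold change. Orange points lie left of all grey points in 35 members and right of them in *DDIT3* and *VLDLR*.

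**Figure D2:**
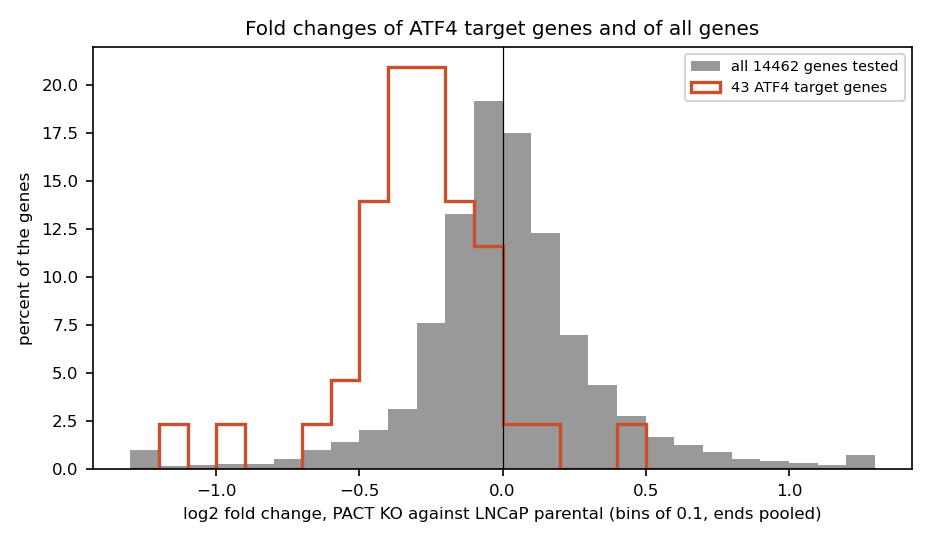
Share of genes (percent, vertical axis) by log2 fold change of PACT KO against LNCaP parental (horizontal axis, bins of 0.1), for all 14462 genes tested (grey) and for the 43 members (orange line). All genes centre on 0 and the members lie mostly to the left, with a median of -0.25.

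The stress regulators lay mostly on the lower side, with 9 of 10 at a log2 fold change under 0. Of the 10, 7 (70%) were lower, against 18.8% of all genes tested, and 1 (10%) was higher, against 15.3%. The other 2 were not called, and the median log2 fold change was -0.21. The largest fall of any member was that of *ATF5*, NCBI Gene number 22809 on chromosome 19 (49928906 to 49933935, GRCh38.p14), a transcription factor of the same basic leucine zipper family as ATF4. It was at 74.0, 70.6 and 73.4 CPM in the LNCaP parental libraries and at 33.6, 34.1 and 33.5 CPM in the PACT KO libraries. The PACT KO libraries lay far below the parental ones and varied little. The log2 fold change was -1.11 ± 0.04 (edgeR FDR = 3.33e-23). *ATF5* overlaps *NUP62* over 599 bases, and *NUP62* had a log2 fold change of -0.12.

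*TRIB3* encodes a pseudokinase that ATF4 induces and that restrains ATF4 in turn. Its levels were 82.7, 77.1 and 78.8 CPM in LNCaP parental and 54.6, 57.6 and 50.4 CPM in PACT KO, with no overlap. This was a log2 fold change of -0.55 ± 0.04 (edgeR FDR = 6.17e-14). *CHAC1*, an enzyme that breaks down glutathione, was at 19.0, 19.2 and 18.5 CPM against 12.8, 13.4 and 14.9 CPM. Here too each PACT KO library was below each LNCaP parental one, with a log2 fold change of -0.47 ± 0.08 (edgeR FDR = 6.39e-06).

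*DDIT3*, number 1649 on chromosome 12 (57516588 to 57520517), went the other way. It encodes CHOP, a factor induced through ATF4 and by stress of the endoplasmic reticulum. It was at 31.7, 29.4 and 32.1 CPM in LNCaP parental and at 41.5, 41.5 and 43.2 CPM in PACT KO. All 3 PACT KO libraries were higher, with a log2 fold change of 0.43 ± 0.05 (edgeR FDR = 1.70e-09). The last 65 bases of *MARS1*, a member that was lower in PACT KO, overlap *DDIT3*, and whether reads there were told apart by strand is not given in the sources used here. *DDIT3* is also overlapped over 2769 bases by LOC128125814, annotated as protein-coding, which was not analysed here.

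The other regulators changed less. *DDIT4* (log2 fold change -0.18 ± 0.03) and *SESN2* (-0.20 ± 0.04) both act against mTORC1, and both were lower. So were *CEBPG*, a partner of ATF4 on the composite element (-0.23 ± 0.04), and *NUPR1*, a small stress-induced nuclear protein (-0.15 ± 0.03). Neither *CEBPB* (-0.25 ± 0.10, edgeR FDR = 0.0336) nor *ATF3* (-0.10 ± 0.07, edgeR FDR = 0.255) was called, and their libraries overlapped between the groups.

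The genes of amino acid synthesis included the serine pathway and single enzymes of other pathways. Of the 11, 7 (63.6%) were lower, against 18.8% of all genes tested, and 0 higher, against 15.3%. The other 4 were not called, and the median log2 fold change was -0.37. In this role, in the transporters and in tRNA charging, the count of higher members was 0 also at an unadjusted p under 0.05, by DESeq2 and by limma. *ASNS*, which makes asparagine and is the classic gene of the amino acid response, was at 215, 210 and 213 CPM in LNCaP parental and at 149, 157 and 149 CPM in PACT KO. The groups did not overlap, and the log2 fold change was -0.48 ± 0.03 (edgeR FDR = 1.10e-16).

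All 3 enzymes of serine synthesis were lower. *PHGDH*, its first enzyme, was at 594, 605 and 588 CPM in LNCaP parental and at 427, 444 and 445 CPM in PACT KO. That is a log2 fold change of -0.44 ± 0.03 (edgeR FDR = 8.09e-17). *PSAT1*, the second enzyme, was at 374, 361 and 359 CPM against 284, 280 and 271 CPM, a log2 fold change of -0.39 ± 0.03 (edgeR FDR = 1.02e-14). *PSPH*, the last enzyme, had a log2 fold change of -0.39 ± 0.04, close to that of *PSAT1*. *SHMT2* (-0.37 ± 0.03) and *MTHFD2* (-0.44 ± 0.04), which carry carbon from serine into the folate pool of the mitochondrion, were lower to a like extent. *ALDH1L2*, a later enzyme of that pool, had 23 to 40 reads in every library and was not called (-0.04 ± 0.22).

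In proline and cysteine synthesis, 1 of 4 members was called. *PYCR1*, the last step to proline, was lower (-0.21 ± 0.03), and *ALDH18A1*, the first, was not called (-0.05 ± 0.03, edgeR FDR = 0.194). *CBS* (-0.05 ± 0.07) and *CTH* (0.10 ± 0.09), which turn homocysteine into cysteine, were not called either. Reads of *CBS* may be uncertain, since a near-identical copy of it is present in the reference assembly.

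All 7 amino acid transporters were lower, with a median log2 fold change of -0.45, and in each of them the libraries of the groups were separate. Of all genes tested, 18.8% were lower, and in 27.2% every PACT KO library lay below every LNCaP parental library. *SLC7A5*, number 8140 on chromosome 16 (87830023 to 87869507), encodes LAT1, which imports leucine and other large neutral amino acids. It was at 13.7, 11.2 and 13.7 CPM in LNCaP parental and at 5.99, 6.70 and 6.97 CPM in PACT KO. This was the second largest fall among the members, with a log2 fold change of -0.98 ± 0.10 (edgeR FDR = 2.00e-10). *SLC3A2* encodes the heavy chain that LAT1 and the cystine carrier need to reach the membrane. It was at 167, 169 and 165 CPM against 129, 130 and 130 CPM, and its log2 fold change of -0.36 ± 0.03 (edgeR FDR = 3.27e-13) stands beside the -0.98 of *SLC7A5*.

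*SLC1A4*, number 6509 on chromosome 2 (64988479 to 65023865), carries alanine, serine and cysteine, and its promoter match is printed above. Its levels were 13.2, 14.3 and 11.1 CPM in LNCaP parental and 9.07, 7.15 and 8.56 CPM in PACT KO, a log2 fold change of -0.64 ± 0.10 (edgeR FDR = 2.27e-06). Without LNCaP parental replicate 2 the value for *SLC1A4* was -0.54, under 1.5-fold. *SLC1A5*, the main carrier of glutamine in many cancer cells, was at 108, 111 and 113 CPM against 75.8, 73.8 and 74.6 CPM. It fell almost as much and with far less spread, with a log2 fold change of -0.57 ± 0.03 (edgeR FDR = 6.32e-17).

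*SLC7A1* imports arginine and lysine. It was at 126, 130 and 125 CPM in LNCaP parental and at 91.5, 94.2 and 94.2 CPM in PACT KO, a log2 fold change of -0.45 ± 0.03 (edgeR FDR = 1.22e-14). *SLC7A11*, the cystine and glutamate exchanger, was at 155, 163 and 161 CPM against 137, 126 and 134 CPM. Its fall was the smallest of the 7, with a log2 fold change of -0.27 ± 0.03 (edgeR FDR = 4.90e-09). *SLC38A2*, a carrier of small neutral amino acids, lay near it at -0.31 ± 0.03.

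**Figure D3:**
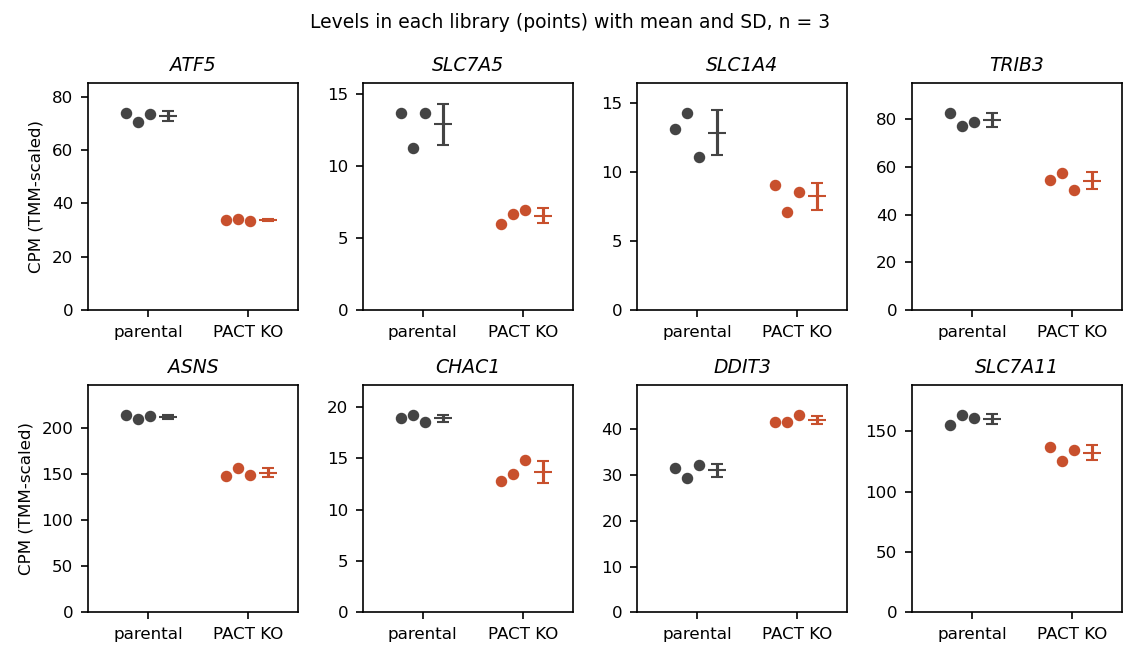
CPM (vertical axes, from 0) of 8 members in each library of LNCaP parental (grey) and PACT KO cells (orange), with the mean and SD of the 3 libraries beside the points. *ATF5* and *SLC7A5* fall the most, *DDIT3* alone is higher in PACT KO, and no pair of groups overlaps.

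The genes of tRNA charging and export lay on one side. All 13 had a log2 fold change under 0, from -0.37 to -0.06 with a median of -0.21, and in all 13 every PACT KO library lay below every LNCaP parental library. Such a separation was found in 27.2% of all genes tested. Of the 13, 12 (92.3%) were called lower, against 18.8% of all genes tested and 37.7% of those with a mean of at least 100 CPM. The exception was *NARS1*, which charges tRNA with asparagine (-0.06 ± 0.03, edgeR FDR = 0.0462). *GARS1*, for glycine, was at 277, 271 and 272 CPM in LNCaP parental and at 210, 218 and 204 CPM in PACT KO. Its log2 fold change of -0.37 ± 0.03 (edgeR FDR = 6.41e-14) was level with that of *YARS1*, for tyrosine.

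*YARS1* was at 184, 188 and 183 CPM in LNCaP parental against 144, 145 and 139 CPM in PACT KO (log2 fold change -0.37 ± 0.03, edgeR FDR = 1.58e-13). *MARS1*, for methionine, was at 253, 249 and 246 CPM against 197, 200 and 194 CPM (-0.34 ± 0.03, edgeR FDR = 5.42e-13). These falls are narrow in CPM yet wider than the spread between dishes, as the highest PACT KO value of each gene was well under its lowest parental value. *IARS1*, for isoleucine (-0.30), *EPRS1*, for glutamate and proline (-0.25), and *SARS1*, for serine (-0.25), came next. *XPOT*, which carries tRNA out of the nucleus (-0.21), *AARS1*, for alanine (-0.20), *CARS1*, for cysteine (-0.20), *TARS1*, for threonine (-0.18), *WARS1*, for tryptophan (-0.13), and *LARS1*, for leucine (-0.12), fell the least among those called.

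The last 2 members went apart. *STC2*, a secreted glycoprotein, was at 94.8, 102 and 101 CPM in LNCaP parental and at 77.8, 71.6 and 75.9 CPM in PACT KO, and it was lower (log2 fold change -0.40 ± 0.04, edgeR FDR = 1.30e-11). *VLDLR*, a lipoprotein receptor, was at 12.02, 12.03 and 11.9 CPM against 13.1, 13.9 and 13.6 CPM. Its libraries were separate, but the difference did not pass (0.17 ± 0.08, edgeR FDR = 0.0888).

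Summed by role, the members of amino acid transport changed by -22.7%, from 923.7 ± 8.22 CPM to 714.1 ± 6.16 CPM, and those of amino acid synthesis by -21.3%, from 2317 ± 30.4 CPM to 1823 ± 38.5 CPM (SD, n = 3). The stress regulators changed by -16.8%, and the genes of tRNA charging and export by -14.3%, from 3715 ± 19.0 CPM to 3183 ± 36.1 CPM. In each role the 3 PACT KO sums lay below all 3 LNCaP parental sums. These differences between roles were not tested.

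The mRNA of *ATF4* itself did not pass the test. It was at 392, 370 and 362 CPM in LNCaP parental and at 351, 374 and 374 CPM in PACT KO, and the groups overlapped. Its log2 fold change was -0.03 ± 0.03 (edgeR FDR = 0.375), and ATF4 protein was not measured. Among 24 genes of ATF4 and the eIF2 pathway, 11 (45.8%) were lower, 2 (8.33%) higher and 11 not called, with a median of -0.06. Of all genes tested, 18.8% were lower and 15.3% higher. Among those with a mean of at least 100 CPM, 37.7% were lower and 17.9% higher, and the median level on this list was 115.8 CPM in LNCaP parental. The kinases moved both ways, with *EIF2AK3* (PERK) at 0.23 ± 0.04 and *EIF2AK2* (PKR) at 0.24 ± 0.06, both higher, *EIF2AK4* (GCN2) at -0.13 ± 0.03, lower, and *EIF2AK1* (HRI) at -0.05 ± 0.03, not called. *EIF2AK2* lost its call when LNCaP parental replicate 1 (FDR = 0.0104), LNCaP parental replicate 2 (FDR = 0.0158) or PACT KO replicate 1 (FDR = 0.0177) was left out. *GCN1*, which GCN2 needs to sense uncharged tRNA, was lower (-0.25 ± 0.03), as were *EIF2S3* (-0.15 ± 0.03) and *EIF2B5* (-0.19 ± 0.04), of eIF2 and its exchange factor.

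Other genes of the pathway were read from lists of their own. A broad list of 43 other genes tied to ATF4 was compiled from general knowledge and holds some relatives of the targets. Of its 41 tested genes, 14 (34.1%) were lower and 8 (19.5%) higher, beside 18.8% and 15.3% of all genes tested. Their median log2 fold change was 0.00090. *PCK2*, an enzyme of gluconeogenesis in the mitochondrion, was at 243, 251 and 244 CPM in LNCaP parental and 176, 175 and 173 CPM in PACT KO (log2 fold change -0.49 ± 0.03). It was lower, with no overlap. *SQSTM1*, a receptor of autophagy (-0.37 ± 0.03), was lower, and so were the DEGs *SLC6A9*, a glycine transporter (-0.63 ± 0.06), and *CEBPD*, a C/EBP factor with 33 to 63 reads per library (-0.65 ± 0.17). Without LNCaP parental replicate 3 (FDR = 0.0109) or PACT KO replicate 1 (FDR = 0.0320), *CEBPD* was not past the threshold.

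The largest rise on that list was that of *SESN3*, a relative of the member *SESN2*. It was at 586, 604 and 623 CPM in LNCaP parental and at 877, 909 and 848 CPM in PACT KO (log2 fold change 0.54 ± 0.03, edgeR FDR = 1.38e-18). Thus *SESN3* was higher where *SESN2* was lower. *HERPUD1*, a gene of the endoplasmic reticulum named here after its value was seen, was also higher (0.34 ± 0.04). *ERO1A*, of the same compartment and list, was lower (-0.27 ± 0.08, edgeR FDR = 0.0046). *HERPUD1* and *ERO1A* thus went in opposite directions, and genes of the endoplasmic reticulum were not counted as a group.

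Among tRNA synthetases outside the members, calls were also on the lower side, whereas 18.8% of all genes tested were lower and 15.3% higher. The cytosolic list held 8 synthetase genes and *AIMP1*, *AIMP2* and *EEF1E1*, which encode scaffold proteins of the synthetase complex. Of these 11, 8 (72.7%) were lower, *AIMP2* included (-0.21 ± 0.04), and 0 higher, 0 also at an unadjusted p under 0.05, by DESeq2 and by limma. The median log2 fold change of these 11 was -0.19, close to the -0.21 of the 13 members of tRNA charging and export. *FARSA* (-0.31 ± 0.03), *FARSB* (-0.30 ± 0.03) and *VARS1* (-0.23 ± 0.03) had the smallest FDRs. Of the 9 that had a promoter in the table, 0 held the composite element. Of 17 mitochondrial synthetases, 8 (47.1%) were lower and 0 higher by edgeR's test, with a median of -0.13, and the largest fall was that of *MARS2* (-0.55 ± 0.06). None was higher by DESeq2 or limma, 1 was at an unadjusted p under 0.05, and 1 was called higher with upper quartile factors or library totals alone. *IARS2* (-0.27 ± 0.03) and *EARS2* (-0.20 ± 0.04), the others of the 3 with the smallest FDRs, were lower too.

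For other genes of serine, glycine and one-carbon metabolism, 8 of 26 tested (30.8%) were lower and 3 (11.5%) higher, beside 18.8% and 15.3% of all genes tested, with a median of -0.06. *MTHFD1* (-0.20 ± 0.03) and *AHCY* (-0.18 ± 0.03) were lower. *ALDH1L1*, the cytosolic relative of *ALDH1L2*, was an upregulated DEG on few reads, with 2, 4 and 4 in LNCaP parental and 14, 14 and 19 in PACT KO. Among 19 other genes of proline, glutamine and sulfur amino acids, 7 (36.8%) were lower and 3 (15.8%) higher. *PYCR3* (-0.36 ± 0.04), *GOT2* (-0.23 ± 0.03) and *GCLC* (-0.36 ± 0.05) were lower, and *ASRGL1* (-0.62 ± 0.12) was a downregulated DEG.

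Amino acid transporters outside the members went both ways, while the 7 members were all lower. The others are less expressed, with a median of 27.28 CPM in LNCaP parental against 127.1 CPM for the members. The difference between the lists was not tested. Of 21 tested, 9 (42.9%) were lower and 3 (14.3%) higher, beside 18.8% and 15.3% of all genes tested. Their median log2 fold change was -0.11. *SLC7A8*, which like LAT1 pairs with *SLC3A2*, was at 120, 122 and 122 CPM in LNCaP parental and at 81.4, 83.1 and 84.9 CPM in PACT KO (log2 fold change -0.55 ± 0.03). *SLC43A1*, a leucine carrier, was lower too (-0.57 ± 0.05). *SLC1A1*, a glutamate carrier of the same family as *SLC1A4* and *SLC1A5*, rose from 20.7, 20.9 and 19.7 CPM to 30.2, 33.0 and 33.7 CPM (0.66 ± 0.06), and *SLC38A3* rose at a lower level (0.95 ± 0.17). *SLC1A3* (-0.85 ± 0.19) and *SLC6A17* (-1.73 ± 0.40) were downregulated DEGs at mean levels of 2.64 and 0.930 CPM in LNCaP parental.

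Members with and without the composite element were set side by side. Of the 15 members with TGATGNAA, 13 were lower, 0 higher and 2 not called, with a median log2 fold change of -0.34. The stricter TGATGCAA was in 10 of these, of which 9 were lower, 0 higher and 1 not called, with a median of -0.26. Of the 20 with a promoter but no match in this window, 14 were lower, 1 higher and 5 not called, with a median of -0.25. Differences between these medians were not tested. *ATF5* and *SLC7A5*, the members with the largest falls, were among those without a match. Outside the members, 72 tested genes held TGATGCAA, of which 19 (26.4%) were lower and 8 (11.1%) higher, and 280 held TGATGNAA, of which 51 (18.2%) were lower and 51 higher, beside 18.8% and 15.3% of all genes tested.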

How the data were processed

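The authors deposited unnormalized read counts per gene, listed by NCBI Gene number, for 6 libraries. The submitters' processing notes name bcl2fastq 2.20.0.422, STAR 2.5.3a, StringTie 1.3.3, featureCounts 1.5.3 and hg38, and the use of strand is not given in the sources used here. One row without a gene number (0.0688% to 0.0708% of counts) was left out. Symbols, positions and promoter sequences came from RefSeq (GRCh38.p14), and 92.4% of genes had a symbol.

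Genes were kept by filterByExpr, scaled by TMM and tested with glmQLFit and glmQLFTest in edgeR 4.0.16 (R 4.3.3), after a check on simulated data. The standard error is the absolute log2 fold change divided by the square root of F. Replicate libraries of a group differed by 1.55 to 3.63 times sampling variance, so none was a duplicate. Alternatives were DESeq2 1.42.0, limma-voom 3.58.1, 3 scalings, 2 filters, the replicate block and each library left out.

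The members and lists were chosen with earlier results of these data known. Values in every library are given for DEGs among the members, the 3 members of each role with the smallest FDR, *ATF4*, *DDIT3*, *ASNS*, *TRIB3*, *CHAC1* and *SLC7A11*. From each other list, at most 5 DEGs and the 3 genes with the smallest FDR are named. One result that this rule would name is not reported here. The eIF2 kinases, *HERPUD1*, *ERO1A*, *PPP1R15A*, *COL1A1*, *ALB*, *VWF*, *AIMP2*, *KLK2*, *KLK3* and *SLC45A3* were added after their values were seen.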

Additional observations from a re-analysis of the deposited data

How the results depend on the processing

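All 35 calls among the members held in each of the 14 alternatives, *DDIT3* as the one rise included, and the counts of members called were 34 lower and 1 higher in each, except for 35 lower without PACT KO replicate 1, where *CEBPB* passed (log2 fold change -0.33). Over the 6 fits that lack 1 library each, 2 to 3 members were downregulated DEGs, 1783 to 2087 of all genes were higher and 2311 to 2605 lower. Over all 14 alternatives these counts ran from 1707 to 2731 higher and from 2255 to 2747 lower. Higher genes made up 44.8% of the calls with TMM, 53.0% with upper quartile factors and 54.4% with library totals alone, so under the latter scalings more of all genes were higher than lower. Scaling shifted the median of all genes by at most 0.03 on the log2 scale, and library totals alone took the median of the members from -0.25 to -0.22. The direction of uncalled genes turned in a few cases. With 1 library left out, *ALDH1L2* ranged from -0.1938 to 0.0636, above 0 without LNCaP parental replicate 1 (0.0172), LNCaP parental replicate 2 (0.0048), PACT KO replicate 2 (0.0081) or PACT KO replicate 3, *CBS* ranged from -0.114 to 0.0104, above 0 without PACT KO replicate 2, and *ATF4* ranged from -0.0545 to 0.0013, above 0 without PACT KO replicate 1. *PPP1R15A* was at 0.0017 with library totals alone. The cause was not tested. *CEBPD* was not past the threshold in DESeq2 (FDR = 0.0336). At 23 to 40 reads per library, *ALDH1L2* had a standard error of 0.22.

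No effect of the replicate numbers shared by the groups was seen. Deviations of same-numbered libraries correlated at -0.0938, 0.00285 and -0.0862 over 14462 genes, and 0 of 3 LNCaP parental libraries correlated best with their own number. With 3 libraries in each group this cannot show whether dishes were handled in pairs. With the replicate block, 34 members were lower and 1 higher, and 2139 genes in all were higher and 2631 lower.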
